A study of Fukomys damarensis and Heterocephalus glaber and Cavia porcellus with 28 samples.

Results

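The levels of 10 genes of giant cytolinkers and of the membrane cytoskeleton were followed across 4 rodent species in heart and in liver. They were the plakins Macf1, Dst and Plec, the scaffold gene Ahnak, the adhesion adaptor gene Fblim1, dystrophin (Dmd) and its relative utrophin (Utrn), the spectrins Sptan1 and Sptbn1, and ankyrin-B (Ank2). Rows were taken by matching mouse Ensembl identifiers to these symbols, and 10 of 10 genes were found among the 13928 rows of each tissue's table. The list was chosen by gene family and by values of these same tables already seen: Macf1 had been among the genes lowest in mole-rats in both tissues, Fblim1 in heart, and Ahnak among the highest in liver. Those values are therefore described below without a test, and the other genes were tested.

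The study compared gene expression between 2 African mole-rats and 2 outgroup rodents by sequencing total RNA from which ribosomal RNA had been removed. Hearts came from 3 naked mole-rats (13 to 17 months old), 5 Damaraland mole-rats (36 to 48 months), 3 guinea pigs (2.3 months) and 3 mice (2 months). Livers came from 4 naked mole-rats (13 to 17 months), 5 Damaraland mole-rats (36 to 48 months), 3 guinea pigs (2.3 months) and 2 mice (2 months). All were male except 1 Damaraland liver donor, no treatment or strain was named, and each replicate was a separate named animal. Mole-rats were older than the outgroups in every case, so age and lineage cannot be told apart here, and 1 Damaraland animal carried different ages in its heart and liver labels.

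Cytolinkers are very large proteins that tie actin filaments, microtubules and intermediate filaments to each other and to junctions of the cell membrane. Macf1 and Dst belong to the spectraplakins, which join actin to microtubules, and Plec (plectin) anchors intermediate filaments, including desmin in heart muscle. Dystrophin and utrophin connect actin to a glycoprotein complex in the muscle membrane, and spectrin tetramers held by ankyrins form a meshwork under the membrane that positions channels and transporters.

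Values are the deposited variance-stabilised numbers, which behave as log2 at high counts and are compressed at low counts. The lowest possible value, that of 0 reads, was 5.36 in the heart table and 4.29 in the liver table (the floor). Inverting the transform gave back read numbers, and dividing these by the size factor of the library gave scaled reads. Recovered totals ran from 4089633 reads (naked mole-rat heart replicate 3) to 26985779 among hearts, while livers had 11220505 to 21467939. Species were compared with limma across all genes of a tissue, and a gene was called at a Benjamini-Hochberg adjusted p under 0.05 together with a difference of at least 1. All 10 genes passed the filter on low values in both tissues. No correction for transcript length is contained in the values, and how completely each species' reference covers these very long genes is not given in the sources used here. A difference between species in gene model and a difference in RNA level therefore cannot be told apart from one value alone, and levels were not compared between genes. As these are bulk samples, fewer cells of a type and less RNA per cell cannot be told apart either.

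Tissue labels held against 6 heart muscle markers and 4 measured hepatocyte markers. The summed heart muscle markers (Myh6, Actc1, Tnnt2, Tnni3, Myl2 and Ryr2) ran from 659774 to 2020237 scaled reads in hearts and from 490 to 3516 in livers, and no marker was at 0. The summed hepatocyte markers (Alb, Ttr, Fgb and Tat) ran from 806200 to 2816101 in livers and from 272 to 29020 in hearts, with the highest heart values in naked mole-rats (10329 to 29020).

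Macf1, which encodes the spectraplakin that links actin to growing microtubules, was low in the naked mole-rat in both tissues and intermediate in the Damaraland mole-rat. In heart its values were 7.59, 7.57 and 7.59 in the naked mole-rat and 10.42, 9.83, 9.85, 10.89 and 9.55 in the Damaraland mole-rat. They were 13.26, 13.50 and 13.24 in guinea pig and 13.28, 13.33 and 13.47 in mouse. No naked mole-rat heart overlapped a Damaraland heart, no Damaraland heart overlapped an outgroup heart, and the outgroups overlapped each other. Mean scaled reads were 118 in naked mole-rat, 1090 in Damaraland animals, 10261 in guinea pig and 10464 in mouse, so that mouse was 88.6-fold above naked and 9.60-fold above Damaraland mole-rat. The naked mole-rat hearts rested on 32 to 180 recovered reads each.

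In liver the order of the mole-rats was the same. Macf1 was 6.20, 6.56, 5.81 and 5.88 in naked mole-rat livers, which hold 28 to 43 reads each, and 9.13, 9.66, 9.18, 9.28 and 10.06 in Damaraland livers. Guinea pig livers had 12.58, 12.97 and 12.53, and mouse livers 12.53 and 12.28. Naked, Damaraland and outgroup livers formed 3 separate ranges, with guinea pig 178-fold above naked mole-rat and 9.65-fold above Damaraland mole-rat in mean scaled reads. The difference of naked minus Damaraland mole-rat was -2.53 (SE 0.23) in heart and -3.35 (SE 0.20) in liver on the log2-like scale. Because that scale is compressed near the floor, voom on the recovered reads gave -3.11 and -4.31.

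A count over all genes, made after the values were seen, sets this beside the rest of the table as a description. Of 10109 genes tested in both tissues, 33 (0.326%) had a naked mole-rat mean at least 3 below that of each other species in both tissues, and Macf1 was not among them, because its heart mean lay 2.53 below that of the Damaraland mole-rat. The step was then lowered to 2 because Macf1 was missing, which gave 64 genes (0.633%) and brought Macf1 in, so its place there follows from that choice and supports nothing. For guinea pig the counts were 6 at the step of 3 and 22 at the step of 2, and Ahnak was among them at both. Damaraland mole-rat had 17 and 28 such genes and mouse 2 and 15, with 0 members in each.

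**Figure D1:**
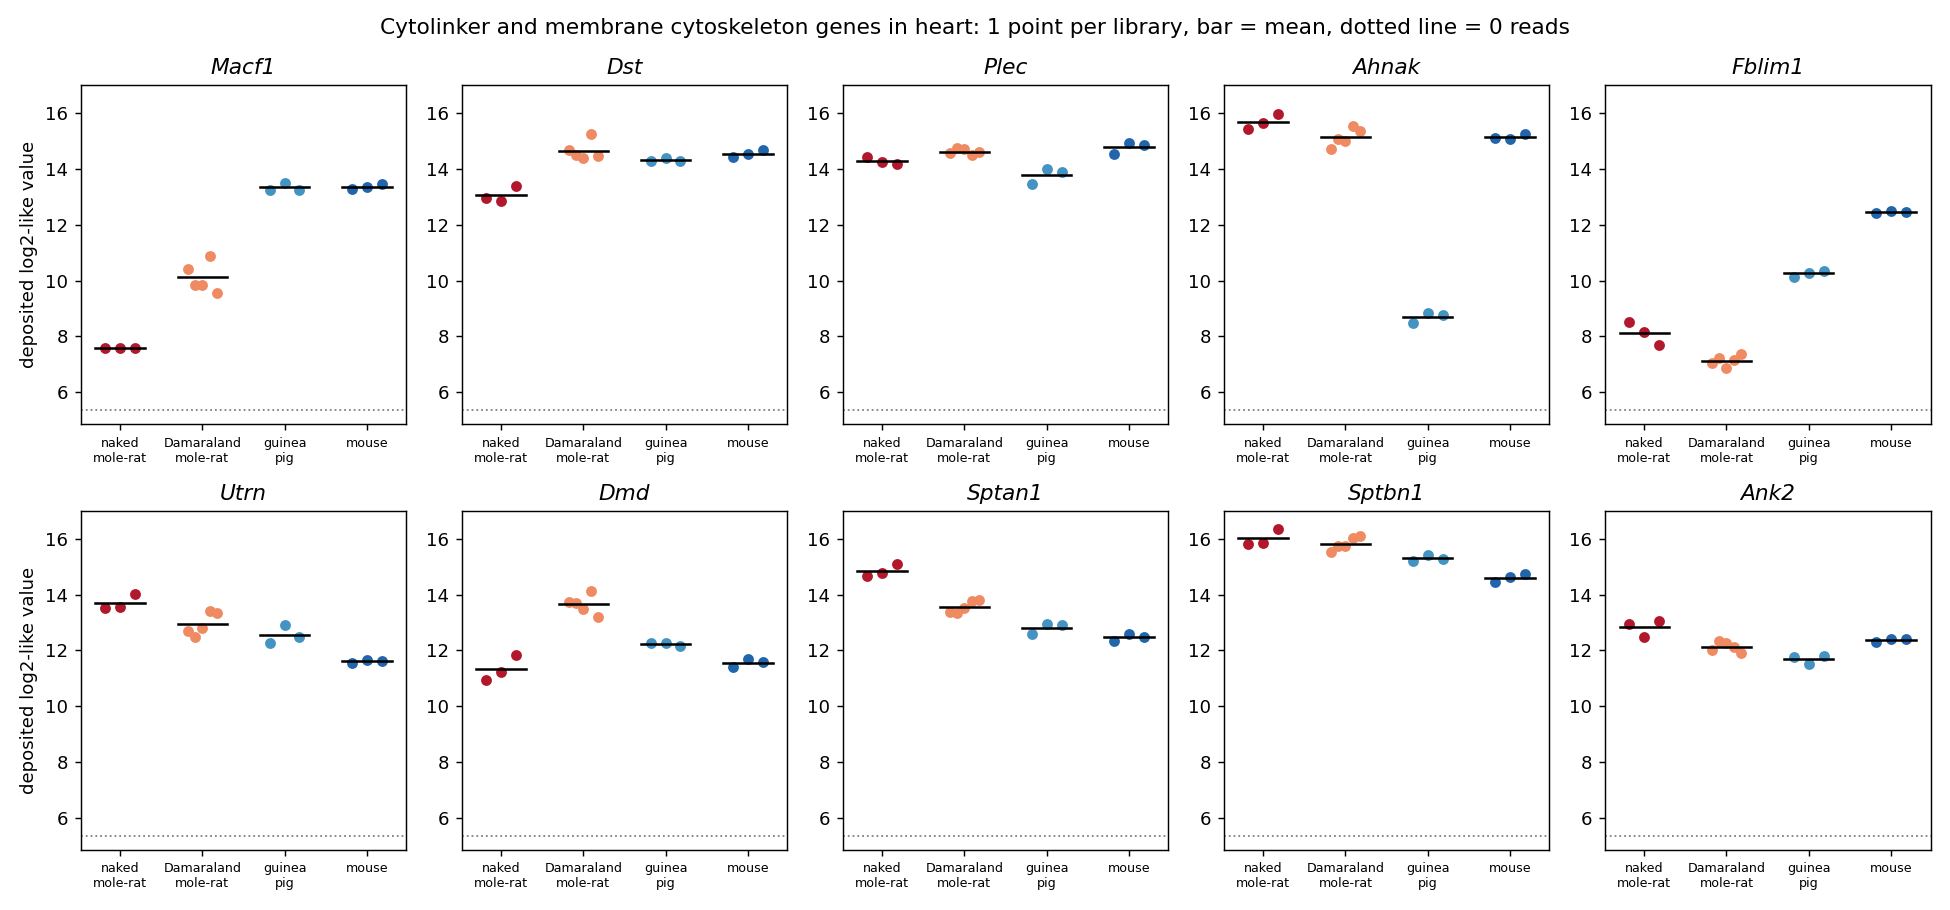
Deposited log2-like value of each gene in the 14 heart libraries, by species (1 point per library, bar at the mean, dotted line at the value of 0 reads). Macf1 falls in steps from about 13.3 in the outgroups to 10.11 and 7.58 in the mole-rats, Ahnak is low in guinea pig alone (mean 8.69), and Dmd is highest in the Damaraland mole-rat (mean 13.65).

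Dst (dystonin), the other spectraplakin, was lower in naked mole-rat hearts than in those of each other species, and no pair of species was called in liver. Heart values were 12.97, 12.83 and 13.38 in naked mole-rat, 14.68, 14.49, 14.39, 15.24 and 14.46 in Damaraland animals, 14.28, 14.40 and 14.28 in guinea pig and 14.42, 14.54 and 14.66 in mouse. All 3 naked mole-rat hearts lay below the 11 others. The difference was -1.59 (SE 0.20; limma adjusted p 3.53e-06) against Damaraland mole-rat, -1.26 (SE 0.22; limma adjusted p 0.000133) against guinea pig and -1.48 (SE 0.22; limma adjusted p 2.18e-05) against mouse. Damaraland and mouse hearts overlapped in Dst.

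Dst in liver ran from 11.61 to 11.85 in naked mole-rat, from 11.70 to 12.49 in Damaraland animals, from 12.17 to 13.19 in guinea pig and from 11.79 to 12.00 in mouse. Naked mole-rats lay below guinea pigs there without overlap, at -0.88 (SE 0.23; limma adjusted p 0.00255), under the size threshold, and this difference was -1.11 and called without guinea pig liver replicate 1. Naked minus Damaraland mole-rat was -0.25 (SE 0.20; limma adjusted p 0.283). Macf1 and Dst are related in sequence, and how reads that match both were divided is not given in the sources used here.

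Plec, the plectin gene, was the member with the smallest average contrast in both tissues. The mean of the mole-rats minus the mean of the outgroups was 0.17 (SE 0.13; limma adjusted p 0.239) in heart and -0.14 (SE 0.17; limma adjusted p 0.459) in liver. Within that average guinea pig and mouse stood on opposite sides. Plec was 13.47, 13.98 and 13.89 in guinea pig hearts against 14.53, 14.91 and 14.85 in mouse hearts, but 13.44, 13.96 and 13.91 in guinea pig livers against 12.58 and 12.68 in mouse livers. Guinea pig was 1.14 above mouse in liver (SE 0.27; limma adjusted p 0.00157), which is called. In heart guinea pig minus mouse was -0.99 (SE 0.19), just under the size threshold, and it was called without guinea pig heart replicate 2 (-1.09), guinea pig heart replicate 3 (-1.05) or mouse heart replicate 1 (-1.11).

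Ahnak encodes a very large scaffold protein of the inner membrane face that binds the S100A10 and annexin A2 complex and, in heart, calcium channel subunits. It was far lower in guinea pig than in the other species. Heart values were 8.48, 8.83 and 8.77 in guinea pig, 15.41, 15.63 and 15.96 in naked mole-rat, 14.71, 15.07, 15.00, 15.53 and 15.36 in Damaraland animals and 15.10, 15.07 and 15.23 in mouse. Guinea pig hearts stood apart from all others, while the Damaraland and mouse hearts overlapped. The heart value had not been used in choosing the genes, but all 3 guinea pigs gave both tissues, as did 10 of the 18 animals in all, so the heart and liver values of guinea pig come from the same animals. Guinea pig was 6.44 below mouse, a difference of guinea pig minus mouse of -6.44 (SE 0.22; limma adjusted p 4.98e-13), and Damaraland hearts exceeded guinea pig hearts by 6.44 (SE 0.20; limma adjusted p 1.86e-13). Mean scaled reads were 338 in guinea pig hearts and 35959 in mouse hearts, a 106-fold difference.

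The average contrast of Ahnak in heart, 3.48 (SE 0.15; limma adjusted p 8.24e-12), came from guinea pig, since naked minus mouse was 0.53 (SE 0.22; limma adjusted p 0.0425), under the size threshold, and Damaraland and mouse means differed by less than their spread. In liver the mouse also lay below the mole-rats. Ahnak was 6.54, 6.89 and 6.81 in guinea pig livers, 11.19 and 10.82 in mouse livers, 13.75, 13.31, 13.16, 12.88 and 13.09 in Damaraland livers and 13.67, 13.63, 13.96 and 13.98 in naked mole-rat livers. Guinea pig, mouse and mole-rat livers formed 3 separate ranges, and the mole-rats overlapped each other. The guinea pig libraries held 430 to 489 reads in heart and 83 to 113 in liver.

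Fblim1 encodes migfilin, a LIM protein that recruits filamin to integrin adhesions and heart cell junctions. In heart it was 8.51, 8.15 and 7.70 in naked mole-rat and 7.04, 7.22, 6.87, 7.16 and 7.39 in Damaraland mole-rat. It was 10.14, 10.27 and 10.35 in guinea pig and 12.43, 12.48 and 12.44 in mouse. The 4 species did not overlap, with mouse highest, then guinea pig, naked mole-rat and Damaraland mole-rat. Mean scaled reads were 5519 in mouse, 1145 in guinea pig, 209 in naked and 71.2 in Damaraland mole-rat. Naked minus Damaraland mole-rat was 0.99 (SE 0.17) and 1.72 with voom on the recovered reads.

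In liver Fblim1 had few reads in every species, 11 to 101 per library. Its values ran from 5.27 to 5.97 in naked mole-rat, 5.67 to 6.26 in Damaraland animals, 5.64 to 5.94 in guinea pig and 6.05 to 6.77 in mouse. No pair of species was called, and the average contrast was -0.34 (SE 0.16; limma adjusted p 0.0755). With voom on the recovered reads mouse was called against each other species, for example naked minus mouse at -1.54 (limma-voom adjusted p 0.00751).

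**Figure D2:**
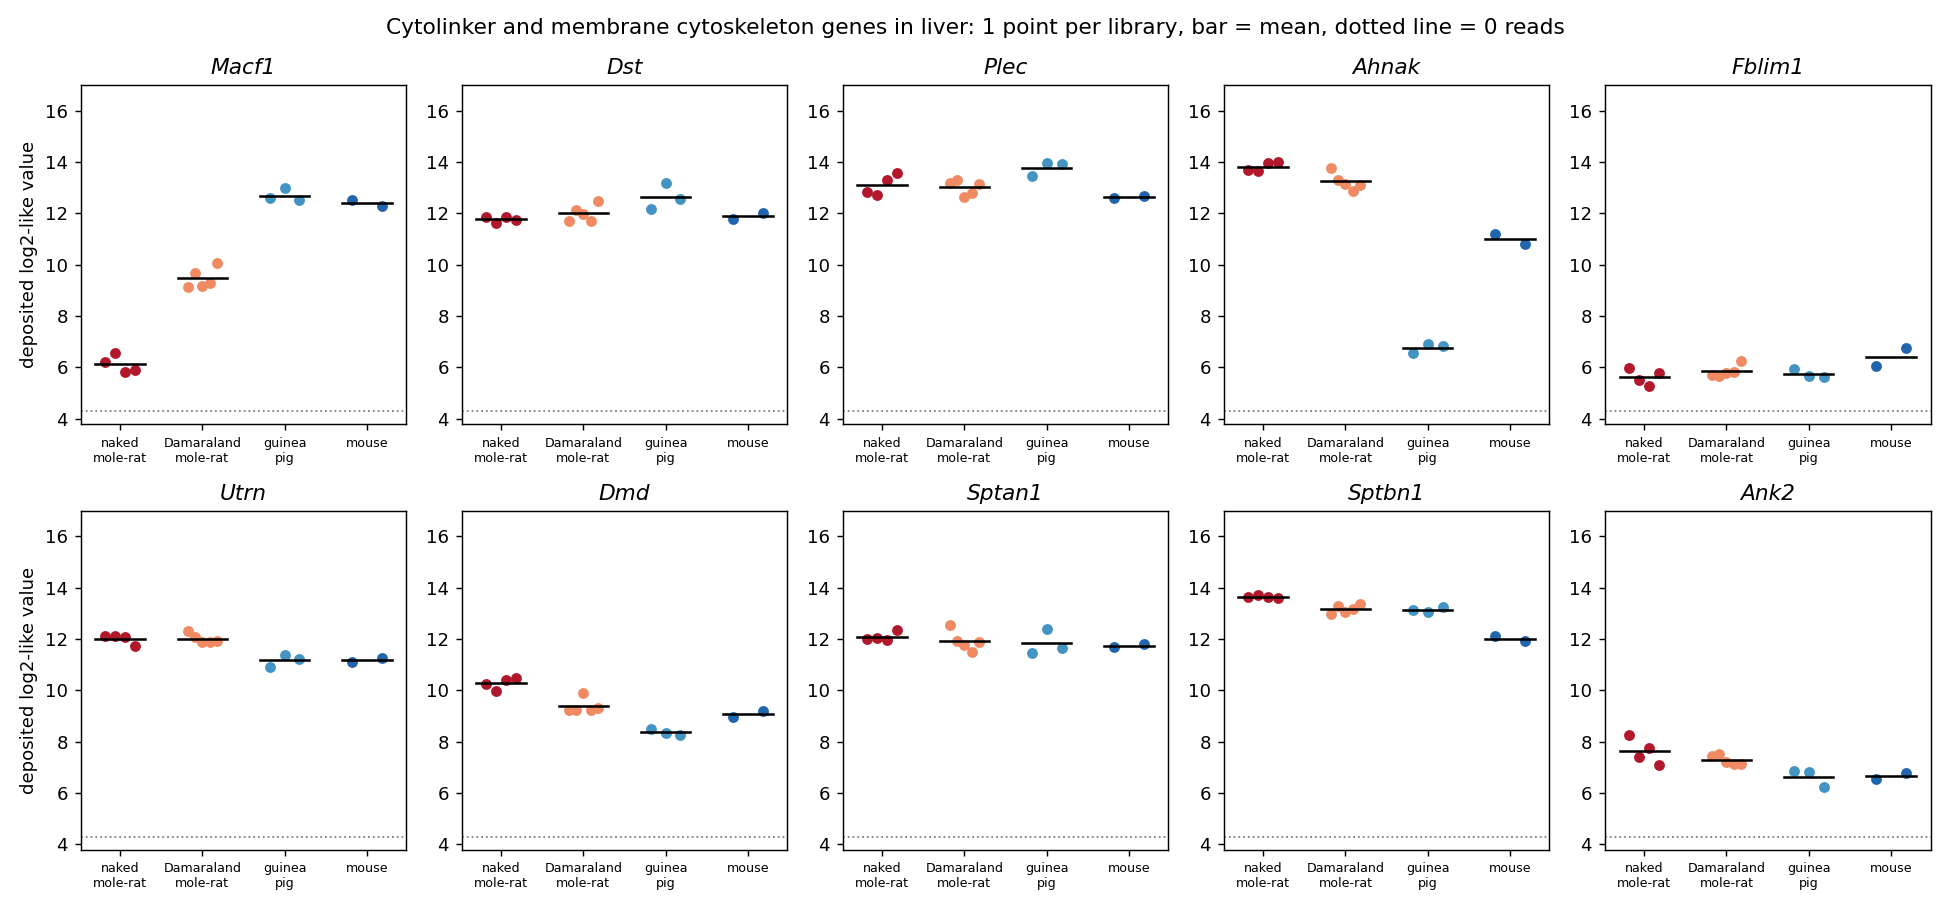
Deposited log2-like value of each gene in the 14 liver libraries, by species (1 point per library, bar at the mean, dotted line at the value of 0 reads). Macf1 (means 6.11 and 9.46 in the mole-rats, 12.69 and 12.40 in the outgroups) and Ahnak (mean 6.75 in guinea pig) repeat their heart order at the low end, whereas Dmd is highest in the naked mole-rat (mean 10.27).

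Dmd, the dystrophin gene, had opposite orders of the mole-rats in the 2 tissues. In heart it was 10.93, 11.21 and 11.82 in naked mole-rat, 13.74, 13.69, 13.48, 14.13 and 13.21 in Damaraland animals, 12.27, 12.28 and 12.16 in guinea pig and 11.41, 11.69 and 11.59 in mouse. Every Damaraland heart lay above every other heart, and naked mole-rat overlapped mouse. Damaraland mole-rat was above naked mole-rat (naked minus Damaraland -2.33, SE 0.21; limma adjusted p 8.25e-08), above guinea pig by 1.41 (SE 0.21; limma adjusted p 2.2e-05) and above mouse by 2.09 (SE 0.21; limma adjusted p 2.34e-07). Naked minus guinea pig was -0.91, under the size threshold, and was called at -1.16 without naked mole-rat heart replicate 3. Mean scaled reads were 2568 in naked and 13065 in Damaraland animals hearts.

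In liver Dmd was 10.24, 9.98, 10.39 and 10.48 in naked mole-rat, 9.23, 9.22, 9.88, 9.24 and 9.31 in Damaraland animals, 8.49, 8.34 and 8.28 in guinea pig and 8.97 and 9.21 in mouse. Every naked mole-rat liver lay above every other liver. The average contrast was called, at 1.09 (SE 0.13; limma adjusted p 1.3e-06). Naked mole-rat was 1.90 above guinea pig (SE 0.18; limma adjusted p 6.12e-08) and 1.18 above mouse (SE 0.20; limma adjusted p 7.04e-05). Against Damaraland mole-rat it was 0.90 higher (SE 0.16; limma adjusted p 7.71e-05), which was under the size threshold, and 1.03 without Damaraland liver replicate 3, which is then called. Damaraland was 1.005 above guinea pig (SE 0.17; limma adjusted p 6.15e-05), a call that ended without that library (0.88) and without guinea pig liver replicate 2 or 3 (0.99 and 0.96).

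Marker levels also differed between the species, and not every marker list is given here. The 6 heart muscle markers summed to 659774 to 1071426 scaled reads in naked and 1391017 to 2020237 in Damaraland hearts, against 787974 to 969940 in guinea pig and 1002149 to 1084867 in mouse. In liver the 4 measured bile duct markers (Krt19, Krt7, Epcam and Spp1) summed to 2138 to 2980 in naked mole-rat livers and 119 to 424 in Damaraland livers, with 835 to 2048 in guinea pigs and 372 to 663 in mice. No heart muscle marker in heart, and no bile duct marker in liver, was at 0 in all libraries of a species. In heart the 5 smooth muscle markers were also lower in naked (6414 to 10194) than in Damaraland mole-rats (11900 to 16221). They summed to 10838 to 12402 in guinea pig and 12966 to 20044 in mouse hearts. The part of these cells in the Dmd differences was not tested.

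Utrn, whose product can take the place of dystrophin at the muscle membrane, was highest in naked mole-rat hearts. It was 13.53, 13.55 and 14.02 there, 12.69, 12.46, 12.81, 13.40 and 13.32 in Damaraland hearts, 12.26, 12.92 and 12.47 in guinea pig hearts and 11.57, 11.65 and 11.61 in mouse hearts. Naked mole-rat and mouse each stood apart at the top and bottom, and Damaraland hearts overlapped guinea pig hearts. The average contrast was 1.24 (SE 0.17; limma adjusted p 5.87e-06). Naked mole-rat was 1.15 above guinea pig (SE 0.25; limma adjusted p 0.000778), which dropped under the size threshold, to 0.99, without naked mole-rat heart replicate 3, and 2.09 above mouse (SE 0.25; limma adjusted p 1.57e-06).

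In liver both mole-rats had Utrn above both outgroups: 12.10, 12.12, 12.09 and 11.72 in naked and 12.30, 12.09, 11.89, 11.88 and 11.91 in Damaraland animals, against 10.93, 11.37 and 11.22 in guinea pig and 11.12 and 11.26 in mouse. The groups did not overlap, and the average contrast of 0.83 (SE 0.12; limma adjusted p 1.32e-05) stayed under the size threshold. The mole-rats overlapped each other there, as did the outgroups. Dmd and Utrn are related in sequence, and the division of shared reads is not given for them either. In naked mole-rat hearts Dmd was called lower than in Damaraland hearts and Utrn was 0.77 higher (SE 0.22; limma adjusted p 0.00685), under the size threshold. With the replicate number as a block Utrn was called at 1.05. That number pairs different animals across species, and only Damaraland hearts have replicates 4 and 5, so nothing is read from that call.

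Sptan1 encodes alpha-II spectrin, the common partner of the beta spectrins in non-erythroid cells. In heart it was 14.65, 14.78 and 15.09 in naked mole-rat, 13.38, 13.32, 13.51, 13.78 and 13.82 in Damaraland animals, 12.60, 12.96 and 12.90 in guinea pig and 12.32, 12.60 and 12.47 in mouse. The 4 species formed ordered ranges that did not overlap, the closest being guinea pig and mouse (12.60 against 12.60 at 2 decimals). The average contrast was 1.56 (SE 0.13; limma adjusted p 2.06e-08), and naked was 1.28 above Damaraland mole-rat (SE 0.17; limma adjusted p 7.82e-06). Naked mole-rat was 2.02 above guinea pig (SE 0.19; limma adjusted p 1.63e-07) and 2.38 above mouse (SE 0.19; limma adjusted p 1.79e-08). In liver values ran from 11.45 to 12.54 over the 14 libraries, naked mole-rats (11.96 to 12.36) lay above mice (11.70 and 11.79) and all other pairs of species overlapped, and the average contrast was 0.22 (SE 0.17; limma adjusted p 0.278).

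Sptbn1, the beta-II spectrin gene, was lowest in mouse in both tissues. Heart values were 15.82, 15.85 and 16.35 in naked mole-rat, 15.52, 15.74, 15.72, 16.03 and 16.09 in Damaraland animals, 15.19, 15.42 and 15.26 in guinea pig and 14.45, 14.64 and 14.73 in mouse. The mole-rats overlapped each other and lay above guinea pig, which lay above mouse. The heart average contrast was 0.96 (SE 0.14; limma adjusted p 1.59e-05), just under the size threshold. It was at or just above 1 with centring (1.01), with quantile normalisation (1.26), and without naked mole-rat heart replicate 1 (1.01), naked mole-rat heart replicate 2 (1.003) or Damaraland heart replicate 1 (1.002), and was then called. In liver the values were 13.63, 13.73, 13.64 and 13.61 in naked mole-rat, 12.98, 13.28, 13.04, 13.15 and 13.37 in Damaraland animals, 13.15, 13.05 and 13.25 in guinea pig and 12.11 and 11.92 in mouse. Guinea pig was 1.13 above mouse (SE 0.18; limma adjusted p 5.38e-05), Damaraland 1.15 (SE 0.17; limma adjusted p 1.44e-05) and naked 1.64 (SE 0.18; limma adjusted p 3.5e-07).

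Ank2 encodes ankyrin-B, which holds exchangers and pumps at the membrane of heart muscle cells. In heart it was 12.93, 12.49 and 13.06 in naked mole-rat, 12.03, 12.33, 12.27, 12.13 and 11.91 in Damaraland animals, 11.75, 11.52 and 11.80 in guinea pig and 12.32, 12.41 and 12.42 in mouse. Naked mole-rat was above the other species and guinea pig below, while Damaraland and mouse overlapped. The only pair called was naked mole-rat against guinea pig, at 1.14 (SE 0.18; limma adjusted p 4.48e-05). In liver, where libraries held 50 to 270 reads of Ank2, the mole-rats (7.10 to 8.26) lay above the outgroups (6.24 to 6.85). The liver average contrast was 0.81 (SE 0.18; limma adjusted p 0.000615), under the size threshold, and with voom on the recovered reads it was 1.07 (limma-voom adjusted p 0.00152) and called.

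**Figure D3:**
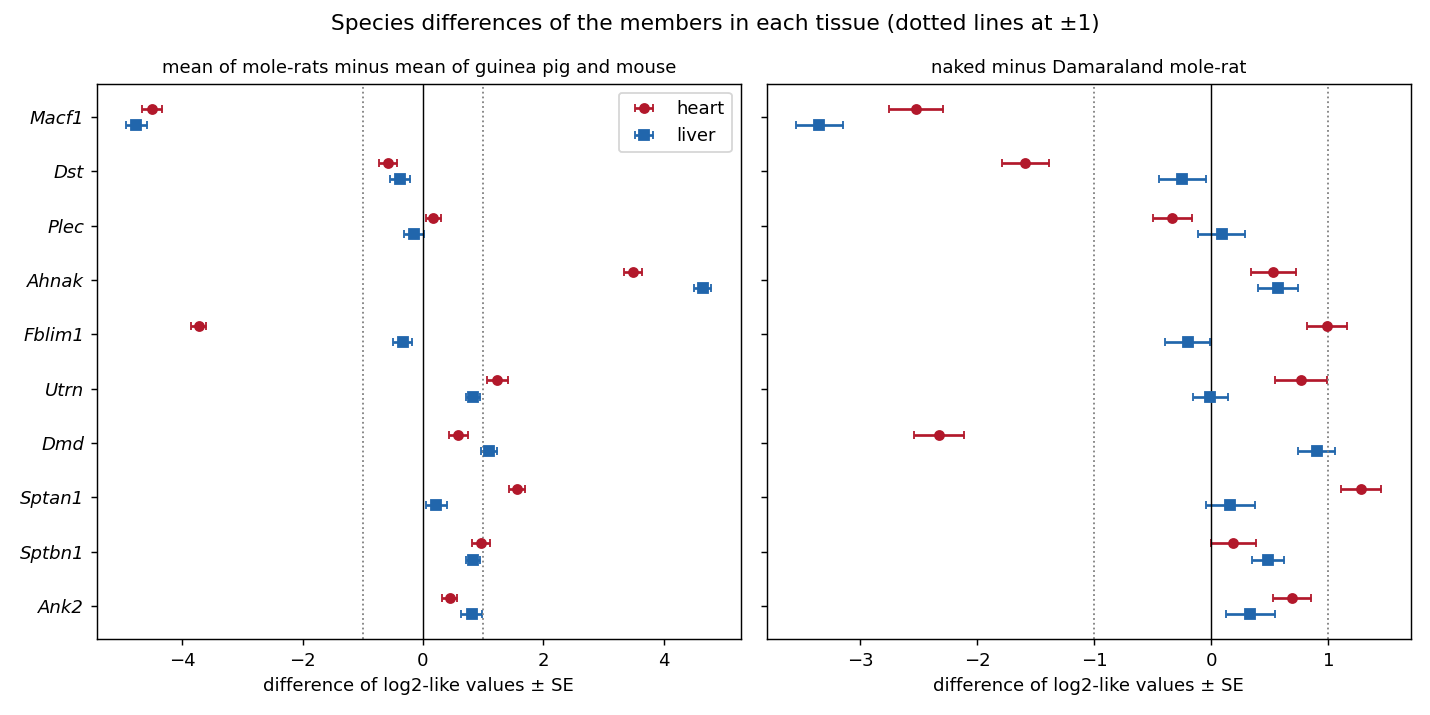
Differences of the 10 genes on the log2-like scale, with limma standard errors, for the mean of the mole-rats minus the mean of guinea pig and mouse (left) and for naked minus Damaraland mole-rat (right), in heart (circles) and liver (squares). Macf1 is far below 0 in both panels and both tissues, and in the right panel Dmd lies at -2.33 in heart and 0.90 in liver.

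Counted together, 8 of the 10 members were tested in each tissue, all but Macf1 and Fblim1 in heart and all but Macf1 and Ahnak in liver. For mole-rats against outgroups 3 of 8 were called in heart, Utrn, Sptan1 and Ahnak, each higher, where 23.4% of all 10667 heart genes were called (10.8% higher and 12.6% lower). In liver 1 of 8 was called, Dmd, higher, where 28.1% of 10887 genes were called (15.1% higher and 13% lower). The described genes also differed by more than the size threshold, Macf1 and Fblim1 lower in heart, and Macf1 lower and Ahnak higher in liver, but these values chose them. All members were chosen with results of these tables known, so nothing is read from the shares here or for the other contrasts. The median difference of the 10 genes was 0.51 in each tissue, against -0.01 over all heart genes and 0.02 over all liver genes. That median includes the genes that these values chose, so nothing is read from it either.

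Between the mole-rats, 3 of 8 tested members were called in heart, Sptan1 higher and Dst and Dmd lower in naked mole-rat, beside 29.4% of all genes (14.2% higher and 15.2% lower). In liver limma called 0 of 8, as did limma-voom on the recovered reads, beside 34.2% of all genes (16.6% higher and 17.6% lower). Of the 8, 2 had an unadjusted p under 0.05, Dmd and Sptbn1. Their limma adjusted p was also under 0.05 (7.71e-05 and 0.00449), and the size threshold alone kept them from a call (0.90 and 0.49). Without Damaraland liver replicate 3, Dmd was called there. Macf1, described only, differed by more than the size threshold in both tissues. Of the 8 tested members in heart, 5 were called for naked mole-rat against guinea pig (33% of all genes), 4 for naked mole-rat against mouse (38.2%), 2 for Damaraland mole-rat against guinea pig (29.7%), 4 for Damaraland mole-rat against mouse (34.9%) and 1 for guinea pig against mouse (32.1%). In liver 1 of 8 (37.8%), 2 (41.2%), 1 (36.2%), 1 (39.2%) and 2 (37.2%) were called for these pairs. These pairs share libraries with each other, so the counts are not independent. Tested against a difference of 1 with limma treat, in place of a size threshold, 17 of the members' calls ended. They included the average contrast of Utrn in heart (adjusted p 0.53) and of Dmd in liver, and in heart naked against Damaraland mole-rat for Sptan1 (adjusted p 0.332) and naked mole-rat against guinea pig (0.563) and mouse (0.107) for Dst.

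The 1 female Damaraland liver lay within the range of the 4 male livers for 7 members and just outside it for 3. Ahnak was 12.88 in it against 13.09 to 13.75, Sptan1 11.51 against 11.78 to 12.54, and Utrn 11.88 against 11.89 to 12.30.

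Heart and liver were set side by side in the 10 animals that gave both: 1 mouse, 3 guinea pigs, 4 Damaraland and 2 naked mole-rats. The tables were transformed separately, so the quantity used was the share of the library's recovered reads, and its heart over liver ratio was described on a log2 scale with no test. Whether the same gene entry served both tissues of a species is not stated. If it did, and both tissues used the same transcripts, a fixed difference in its length or completeness does not enter this ratio. Transcript use was not examined, and a gap in a part used more in either tissue would enter the ratio. For Dmd the ratio was 0.52 and 1.04 in naked mole-rats, 3.92, 4.06, 4.54 and 4.06 in Damaraland mole-rats, 3.87, 4.08 and 4.19 in guinea pigs and 2.08 in the mouse. Both naked mole-rats lay below all other animals. Mitochondrially encoded genes held at most 0.0279% of the reads of Damaraland hearts and 5.42 to 26.9% of those of other hearts, and without these genes the Dmd ratio was 0.87 and 1.32 in naked mole-rats, 3.92 to 4.54 in Damaraland mole-rats, 4.10 to 4.24 in guinea pigs and 2.41 in the mouse.

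For Sptan1 the ratio was 2.71 and 2.86 in naked mole-rats, above the 0.00 to 1.67 of the other 8 animals. For Dst it was 1.05 and 1.14 in naked mole-rats, 1.70 to 2.76 in Damaraland mole-rats, 0.87 to 2.39 in guinea pigs and 2.09 in the mouse, so naked mole-rats overlapped guinea pigs. For Macf1 it was 1.62 and 2.33 in naked mole-rats, -0.48 to 1.26 in Damaraland mole-rats, 0.07 to 1.08 in guinea pigs and 0.60 in the mouse. The low level of Macf1 in naked mole-rats was thus present in both tissues, with the liver the lower of the 2. For Ahnak the guinea pig ratio, 1.54 to 2.85, overlapped those of the naked mole-rats (1.45 and 2.03) and Damaraland mole-rats (1.56 to 1.75), with 3.83 in the mouse. For Fblim1 it was 0.01 to 2.24 in Damaraland and 2.87 and 4.95 in naked mole-rats, against 5.49 to 6.21 in guinea pigs and 5.81 in the mouse, with 11 to 41 liver reads in each animal except the mouse (101). Ank2 had a high heart over liver ratio in all 10 animals, 4.47 to 6.54.

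**Figure D4:**
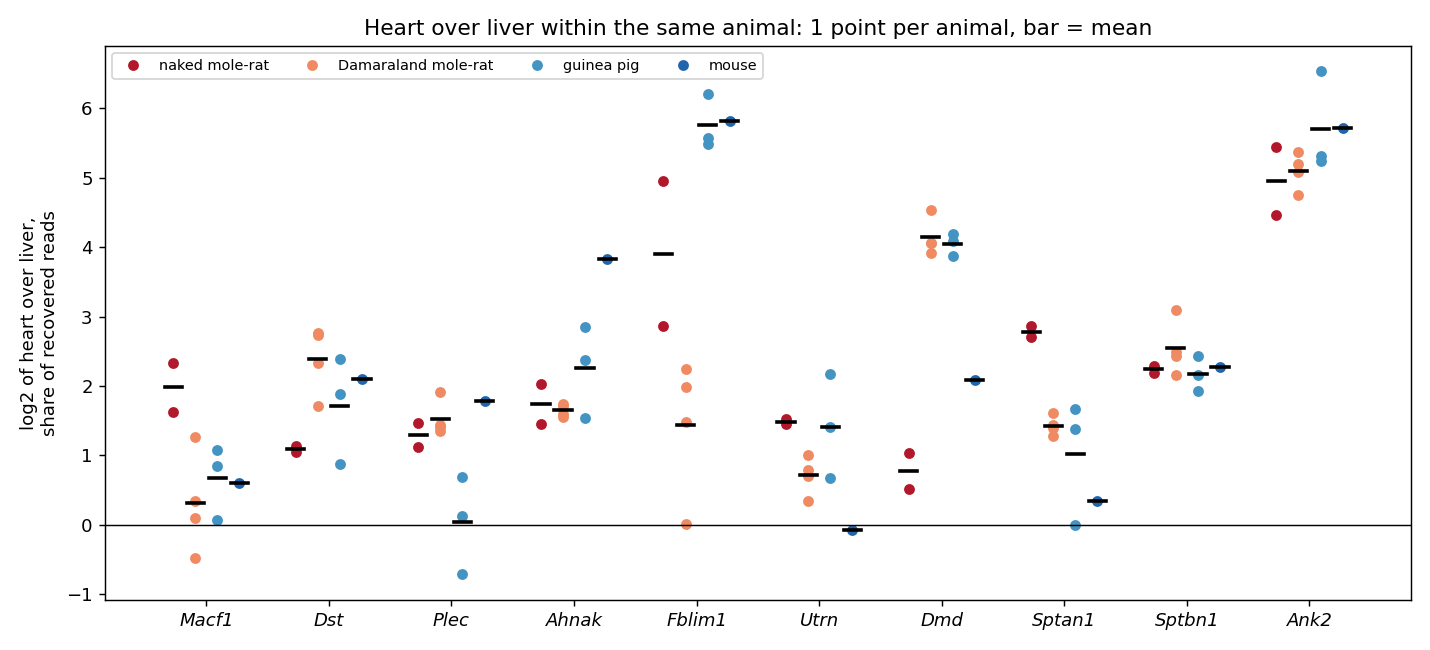
log2 of the heart over liver share of recovered reads within each of the 10 animals with both tissues (1 point per animal, bar at the species mean, coloured by species). Naked mole-rats lie lowest for Dmd (0.52 and 1.04) and highest for Sptan1 (2.71 and 2.86).

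Partners and relatives of these genes were examined as lists drawn up by pathway, with earlier results of these data known. The contrast was that of mole-rats with outgroups unless stated. Beside the 23.4% of heart genes and 28.1% of liver genes called in that contrast, of 3 measured AHNAK partners S100a11 was called higher and S100a10 lower in heart (median 0.54), and S100a11 and Anxa2 were called higher in liver (median 3.39). S100a10, the annexin A2 ligand that AHNAK binds, was 5.67 ± 0.13 (SD, n = 3) in naked mole-rat hearts, close to the floor. It was 9.25 ± 0.27 (SD, n = 5) in Damaraland hearts (naked minus Damaraland -3.58, SE 0.16, limma adjusted p 1.07e-11). Naked mole-rat hearts were also called lower than guinea pig and mouse hearts in S100a10. Damaraland hearts were not called against either outgroup, so the heart call came from the naked mole-rat. In liver S100a10 was 4.87 ± 0.70 (SD, n = 4) in the naked species, again near the floor, and 9.91 ± 0.37 (SD, n = 5) in the Damaraland species (naked minus Damaraland -5.03, SE 0.29; limma adjusted p 1.05e-10). Anxa2 in liver was 12.35 and 12.24 on average in the mole-rats, 10.26 in guinea pig and 7.54 in mouse (average contrast 3.39, SE 0.20; limma adjusted p 2.02e-10).

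Of 14 dystrophin complex genes tested in heart, 1 was called higher (Dtna, the dystrobrevin gene, at 1.42, SE 0.17; limma adjusted p 1.83e-06) and 2 lower (Sntb2, a syntrophin, at -1.79, and Sspn, sarcospan, at -1.30), with a median of -0.35. In liver 11 were tested, with Sgcb, a sarcoglycan, called higher at 2.17 and Sntb2 lower at -1.27 (median 0.32). Between the mole-rats Sgcb and Cav3 were among the genes called lower, and Sspn was called higher, in naked mole-rat hearts, so that Sgcb (-2.19, SE 0.17; limma adjusted p 1.19e-08) differed in the same direction as Dmd there. In liver Sgcb was also lower in naked mole-rat (-1.72, SE 0.22; limma adjusted p 1.97e-06), where Dmd was higher by 0.90.

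Of 16 spectrin skeleton genes tested in heart, 5 were called higher and 3 lower (median 0.11). Among those higher were Sptbn4 (1.20) and Sptb (1.19), and Add1, an adducin that caps actin at spectrin junctions, was at 1.06. In liver 4 of 14 were called higher and 0 lower, among them Epb41l3 at 1.98 and Add1 at 1.63 (limma adjusted p 4.94e-09 and 3.76e-09). Among 3 measured plakin relatives, 1 was called higher in each tissue, Evpl (envoplakin), at 1.58 in heart and 2.39 in liver. Ppl and Dsp, the periplakin and desmoplakin genes, were called lower in naked than in Damaraland hearts (-1.28 and -1.13; limma adjusted p 0.0114 and 2.07e-05).

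Of 16 integrin adhesion genes tested in heart, 4 were called higher and 2 lower (median 0.38), led by Lims1 at -1.79, Csrp1 at 1.65 and Flnc, a muscle filamin, at 1.23. In liver 4 of 17 were higher and 1 lower (median 0.23), led by Csrp1 at 3.47, Tln2 at 1.88 and Fermt1 at 1.48. Of 10 microtubule end genes, Clasp1 was called lower in heart at -1.92, where mouse was highest (13.51 against 9.84 to 11.18), and in liver Clip1 was called lower at -1.40 and Mapre2 higher at 1.06. Of 7 intermediate filament genes tested in heart, Synm (synemin) was called higher at 2.83, with a mean of 8.50 in mouse against 12.99 to 13.84 elsewhere, and of 8 in liver Synm was higher at 1.69 and Lmnb2 lower at -1.36. The desmin gene Des and the vimentin gene Vim were not called in this contrast in either tissue. Synm in liver was called higher in each other species than in mouse, and neither mole-rat was called against guinea pig. The list medians stand beside those of all genes, -0.01 in heart and 0.02 in liver.

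The genes whose values ran most like those of Macf1 over the 14 libraries were Mat2b (Pearson r 0.990), Lynx1 (0.990) and Nol8 (0.983) in heart and Ptprg (0.986), Tmem131l (0.985) and Tram2 (0.985) in liver, so the 3 nearest genes differed between the tissues. Those nearest to Ahnak were Pde4dip (0.990), Mier3 (0.988) and Snrpd2 (0.987) in heart, the last with 0 reads in all guinea pig hearts, and Hmox2 (0.991), Clstn3 (0.988) and Cbr4 (0.982) in liver. Those nearest to Fblim1 in heart were Fuca2 (0.989), Dffa (0.988) and Dcaf10 (0.988). In liver, where Fblim1 had few reads, the nearest were Fam92a (0.843), Crtc1 (0.841) and AU040320 (0.812). The libraries of a species share its reference and its animals, so these correlations describe species patterns only.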

How the data were processed

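Ribosome-depleted total RNA from 28 libraries, 14 of heart and 14 of liver, had been sequenced, per the labels' protocols. The submitters' processing notes name cutadapt, Salmon, DESeq2 and GRCm38 without their roles, and the index and the assignment of genes across species are not given in the sources used here. The authors deposited variance-stabilised, log2-like values for 13928 genes per tissue, which were used as deposited, and 26 columns of other samples were not used. Symbols came from a table of mouse Ensembl identifiers. Genes with a mean of at least 1 above the floor were tested, 10667 in heart and 10887 in liver.

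Species means were fitted with limma 3.58.1 in R 4.3.3 over all 14 libraries of a tissue, with a variance trend and no covariate, and p-values were adjusted by Benjamini-Hochberg over all tested genes. A call needed an adjusted p under 0.05 and a difference of at least 1. The average contrast is the mean of the mole-rat means minus the mean of the outgroup means. Reads recovered by inverting the transform were whole within 0.0001 in 100% of values, and served depth, the tissue ratio and limma-voom. An interval from counting served only as the spread of the tissue ratio in mouse, where 1 animal gave both tissues. Depth differences between libraries are those of the recovered totals.

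The members and gene lists were chosen with earlier results of these data known. Named were all members, up to 3 called genes per list with the largest average contrast, and the 3 genes of highest Pearson r to Macf1, Fblim1 and Ahnak. Genes of the lists named for other contrasts, or without a call, were chosen after their values were seen. Alternatives were the size threshold, limma treat, filters, centring, quantile normalisation, no variance trend, array weights, limma-voom, the replicate number as a block, and fits lacking each library in turn. Results that need a few genes withheld from this text are not reported here.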

Additional observations from a re-analysis of the deposited data

Results flagged for a closer look

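Over 30 groups of 4 or 5 libraries, 4 held a library far from the others by Dixon's 95% criterion, where chance gives about 1 in 20. In liver, Dmd was 9.88 in Damaraland mole-rat replicate 3 against 9.22 to 9.31 in the other 4, and Fblim1 was 6.26 in Damaraland mole-rat replicate 5 against 5.67 to 5.82. Naked mole-rat liver replicate 4 stood apart in 2 genes, with Sptan1 at 12.36 against 11.96 to 12.02 and Utrn at 11.72 against 12.09 to 12.12.

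For 7 of the 70 pairs of a member and a species contrast (10%) every library of one species lay above the other in heart and below it in liver, or the reverse. Over all genes tested in both tissues this held for 5524 of 70763 pairs (7.81%), and the contrasts share libraries. The difference between tissues was not tested. For Dmd, naked minus Damaraland mole-rat was -2.33 in heart and 0.90 in liver, naked mole-rat minus guinea pig was -0.91 and 1.90, and guinea pig minus mouse was 0.67 and -0.72. For Plec, naked mole-rat minus mouse was -0.49 and 0.47, Damaraland mole-rat minus guinea pig 0.83 and -0.76, and guinea pig minus mouse -0.99 and 1.14. For Dst, guinea pig minus mouse was -0.22 in heart and 0.74 in liver, and the heart value was 0.18 after quantile normalisation. Whether the same gene model served both tissues of a species is not given in the sources used here.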

How the results depend on the processing

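Without the size threshold, members called rose from 5 to 9 (heart, mole-rats against outgroups), 4 to 8 (heart, naked against Damaraland mole-rat), 3 to 6 and 1 to 4 (the same in liver), where 67.3%, 62.4%, 68.0% and 67.7% of all genes were then called. These member counts and the ones that follow are over all 10 members and include the genes described without a test. The calls of those genes are no test result, and the 1 called between the mole-rats in liver in the main fit was Macf1. Leaving out 1 library at a time gave 5 to 6, 4 to 5, 3 to 3 and 1 to 2, with the liver count of 2 coming without Damaraland liver replicate 3. Contrasts with mouse were not refitted without either mouse liver, since 1 library would remain. With only genes above the table median, Fblim1 and Ank2 were not tested in liver. limma-voom on recovered reads called 5, 5, 4 and 1 members, and 3841 heart genes against 2493 for mole-rats against outgroups. Apart from the fits without the size threshold, the shares of all genes called under the alternatives are not printed here. Nothing is therefore read from the member counts of those alternatives. Replicate numbers shared by different species belong to different animals. Same-numbered libraries of different species correlated over 0.1 in 2 of 18 pairs in heart and 5 of 16 in liver. Different-numbered libraries did so in 9 of 54 pairs in heart and 10 of 55 in liver. With the replicate block the counts were 5, 6, 4 and 1. The block ended the call of Sptan1 for Damaraland mole-rat against mouse in heart (0.94), as did array weights (0.996). Quantile normalisation ended that of Dmd for Damaraland mole-rat against guinea pig in liver (0.99). Of the members' 140 species contrasts, 17 changed sign under at least 1 alternative (44 values, with 0 of them for a called difference), and the cause was not tested. Quantile normalisation gave in heart naked minus Damaraland mole-rat -0.12 for Sptbn1, naked minus mouse 0.021 for Dmd, Damaraland minus mouse 0.10 for Plec and 0.46 for Ahnak, and guinea pig minus mouse 0.40 for Macf1 and 0.18 for Dst. In liver it gave naked minus Damaraland -0.094 for Plec, Damaraland minus guinea pig -0.084 for Sptbn1 and guinea pig minus mouse 0.20 for Utrn. Centring gave Damaraland minus mouse 0.057 for Ahnak in heart and naked minus Damaraland 0.038 for Utrn in liver. Array weights gave in liver naked minus Damaraland 0.045 for Utrn, naked minus guinea pig 0.0064 for Fblim1, Damaraland minus guinea pig -0.054 for Sptbn1 and guinea pig minus mouse -0.017 for Sptan1. The replicate block gave Damaraland minus mouse -0.024 for Dst in heart, and in liver Damaraland minus guinea pig -0.050 for Fblim1 and -0.033 for Sptbn1, and guinea pig minus mouse 0.0094 for Utrn and 0.076 for Ank2. Leaving out 1 library gave in heart Damaraland minus mouse -0.101 to 0.103 for Ahnak and -0.038 to 0.176 for Dst, and guinea pig minus mouse -0.115 to 0.024 for Macf1. In liver it gave naked minus Damaraland -0.065 to 0.219 for Plec and -0.045 to 0.089 for Utrn, and naked minus guinea pig -0.219 to 0.017 for Fblim1. Damaraland minus guinea pig ran from -0.098 to 0.366 for Sptan1, -0.034 to 0.068 for Sptbn1 and -0.0099 to 0.194 for Fblim1, and Damaraland minus mouse from -0.016 to 0.182 for Dst. Guinea pig minus mouse ran from -0.119 to 0.104 for Utrn, -0.187 to 0.277 for Sptan1 and -0.140 to 0.168 for Ank2. Of the 40 heart over liver ratios of a member in a species, 14 moved by more than the spread without mitochondrially encoded genes. All 14 were in naked mole-rat or mouse. For the mouse, with 1 animal, the spread was a 95% interval from its read counts, which holds no difference between animals. The mouse ratio of Sptan1 went from 0.34 to 0.67, for example, and that of Utrn went from -0.08 to 0.25.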
